A study of Mus musculus with 8 samples.

Results

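Of the 312 EBF1 peaks found in DMSO-treated mouse pro-B cells, 229 (73.4%, exact Clopper-Pearson 95% interval 68.1% to 78.2%) had no Brg1 peak on them. A site was placed in this group if it shared not even 1 bp with any of the 234 Brg1 peaks of DMSO-treated cells or the 5206 Brg1 peaks of dTAG-13-treated cells. The other 83 sites (26.6%) overlapped a Brg1 peak of either list. Among these 83, 44 overlapped a peak of the DMSO list and 56 a peak of the dTAG-13 list. Some therefore had a Brg1 peak in only 1 of the treatments. The sites were chosen by the measured overlap of their peaks with Brg1 peaks, so the lack of Brg1 on them is a description and not a finding.

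The study used mouse pro-B cells carrying A-MuLV (Abelson murine leukaemia virus) as the transforming agent, in which an introduced, modified EBF1 takes the place of the cells' own. The line EBF1-dTAG_C was fixed in formaldehyde and gave the EBF1 libraries, for DMSO and for dTAG-13. Another line, EBF1-dTAG_N, was fixed with EGS followed by formaldehyde and gave the Brg1 libraries under the same treatments. dTAG-13 is a degrader that recruits a ubiquitin ligase to proteins carrying the dTAG tag, and cells were given 0.5 µM of it during 6 h. The controls are described as 6 h of DMSO by their treatment label but as 0 h by their titles. Both lines and both treatments share the transformed background. Each line has a modified EBF1, which need not be the same in both lines, and the labels do not say whether a line is 1 clone. Each group holds 1 library and no replicate, and sites of 1 library are not replicates of a condition. For that reason sites without and with Brg1 are set side by side with intervals that cover counting error only, and no test was made. Because line, fixation and antibody all differ between the EBF1 and Brg1 libraries, their part in a missing overlap was not tested.

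EBF1 is a DNA-binding protein of the COE family that is needed for commitment to the B lineage. It binds DNA as a dimer at a palindromic motif, searched here as TCCC followed, after any 2 bases, by GGGA. Brg1, encoded by Smarca4, is an ATPase of the BAF (SWI/SNF) complexes, which slide or evict nucleosomes and make DNA accessible. Many transcription factors work together with these complexes at enhancers.

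The promoters under these sites let the motif be read directly, so they are shown before the values. Promoter windows, from 250 bp before to 50 bp after a start site, came from RefSeq for GRCm38.p6 and cover 17492 of 21900 protein-coding genes. Of the 229 sites, 15 lay at least partly in a protein-coding promoter window, each in 1 such window. In 8 of the 15, the peak itself covered the motif, exactly or with 1 mismatch, and these 8 promoters are printed 5′ to 3′ along the gene's strand, from 250 bp before to 30 bp after the start site. Capitals mark the motif, a pattern that is the same on both strands. In the first 6 promoters it is exact. In Trim25 it carries the substitution T1C and in Rtca A10G, counted from 1 at the motif's 5′ end as printed. At Rtca an equally good match begins 1 bp further along, so the stretch marked there is 1 of 2 choices.
Hdlbp (chr1:93478348-93478627, minus strand): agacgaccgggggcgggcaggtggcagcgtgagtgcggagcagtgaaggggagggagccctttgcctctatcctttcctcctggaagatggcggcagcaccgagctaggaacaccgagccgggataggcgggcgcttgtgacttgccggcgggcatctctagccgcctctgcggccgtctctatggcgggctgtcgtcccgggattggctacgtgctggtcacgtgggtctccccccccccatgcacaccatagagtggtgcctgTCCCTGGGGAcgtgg
Ppm1a (chr12:72760961-72761240, plus strand): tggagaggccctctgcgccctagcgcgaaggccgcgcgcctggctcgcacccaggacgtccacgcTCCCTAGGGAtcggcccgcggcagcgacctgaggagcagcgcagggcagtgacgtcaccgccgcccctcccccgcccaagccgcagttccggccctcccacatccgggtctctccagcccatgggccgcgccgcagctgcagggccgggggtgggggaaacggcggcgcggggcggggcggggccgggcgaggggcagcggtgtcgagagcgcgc
Mphosph8 (chr14:56667998-56668277, plus strand): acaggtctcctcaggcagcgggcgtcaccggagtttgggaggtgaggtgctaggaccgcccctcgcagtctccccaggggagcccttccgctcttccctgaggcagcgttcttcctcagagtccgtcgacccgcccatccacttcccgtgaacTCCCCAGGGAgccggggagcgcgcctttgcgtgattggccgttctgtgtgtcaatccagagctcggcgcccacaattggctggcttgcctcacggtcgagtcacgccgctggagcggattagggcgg
Pold4 (chr19:4231643-4231922, plus strand): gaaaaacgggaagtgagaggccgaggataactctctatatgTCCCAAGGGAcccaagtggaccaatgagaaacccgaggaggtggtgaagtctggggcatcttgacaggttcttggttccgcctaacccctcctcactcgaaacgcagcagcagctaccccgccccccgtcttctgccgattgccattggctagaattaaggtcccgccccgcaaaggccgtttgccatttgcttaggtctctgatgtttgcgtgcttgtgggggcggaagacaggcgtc
Acp6 (chr3:97158527-97158806, plus strand): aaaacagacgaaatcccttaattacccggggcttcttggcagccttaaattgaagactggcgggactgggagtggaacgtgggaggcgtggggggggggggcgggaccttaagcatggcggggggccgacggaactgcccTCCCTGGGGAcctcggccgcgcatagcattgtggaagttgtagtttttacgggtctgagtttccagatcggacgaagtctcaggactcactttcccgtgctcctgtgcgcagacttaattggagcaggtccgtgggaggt
Hip1r (chr5:123973378-123973657, plus strand): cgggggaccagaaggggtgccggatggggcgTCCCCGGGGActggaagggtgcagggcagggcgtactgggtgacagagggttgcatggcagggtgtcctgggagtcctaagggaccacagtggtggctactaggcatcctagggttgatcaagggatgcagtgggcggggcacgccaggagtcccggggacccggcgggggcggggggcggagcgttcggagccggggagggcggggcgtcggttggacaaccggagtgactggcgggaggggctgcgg
Trim25 (chr11:88999153-88999432, plus strand): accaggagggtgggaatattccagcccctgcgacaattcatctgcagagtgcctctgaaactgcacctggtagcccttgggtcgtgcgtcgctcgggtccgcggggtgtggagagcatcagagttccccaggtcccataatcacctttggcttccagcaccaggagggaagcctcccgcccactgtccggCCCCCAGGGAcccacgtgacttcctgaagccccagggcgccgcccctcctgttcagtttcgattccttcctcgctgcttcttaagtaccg
Rtca (chr3:116508146-116508425, minus strand): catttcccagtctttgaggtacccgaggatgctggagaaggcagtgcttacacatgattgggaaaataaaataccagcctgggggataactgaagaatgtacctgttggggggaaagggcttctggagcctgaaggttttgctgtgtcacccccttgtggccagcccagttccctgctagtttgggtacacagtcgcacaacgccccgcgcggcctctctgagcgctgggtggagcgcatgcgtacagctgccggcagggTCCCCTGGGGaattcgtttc

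Across these 8 promoters the motif's centre lay 1 to 14 bp from the EBF1 summit. Ppm1a, a protein phosphatase gene, had the motif 1 bp from the summit, and Hip1r, which links clathrin-coated vesicles to actin, had it 3 bp away. At Hdlbp, which encodes the RNA-binding protein vigilin, the motif lay 20 bp downstream of the start site and 8 bp from the summit. The motif had no fixed place relative to the start site, since at Hip1r it was 214 bp upstream.

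Counted over whole windows, 7 of the 15 promoters (46.7%, 21.3% to 73.4%) held an exact motif, against 204 of all 21263 protein-coding windows (0.959%). The share of windows with an exact motif was thus many times that of promoters in general. With 1 mismatch allowed the values were 10 of 15 (66.7%) and 17.6%. Tlnrd1 also had an exact motif in its window, but 161 bp from the summit and outside the peak. Ppp1r18 had a match with 1 mismatch outside its peak, and Tor4a, Gfi1b, Ptpa, Rhof and Topbp1 had neither kind of match in these windows. Their peaks reach beyond the window, and sequence there was not read. The 15 windows had a median GC content of 62.7%, against 56.3% of all protein-coding windows, and the part of base composition in the motif share was not tested. Of the 5 promoters under EBF1 sites with Brg1, namely Igll1, Rab5a, Pik3ap1, Rinl and Niban3, none held an exact motif (0%, up to 52.2%) and Rinl and Niban3 held a match with 1 mismatch. With 5 promoters the interval overlaps that of the sites without Brg1.

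**Figure D1:**
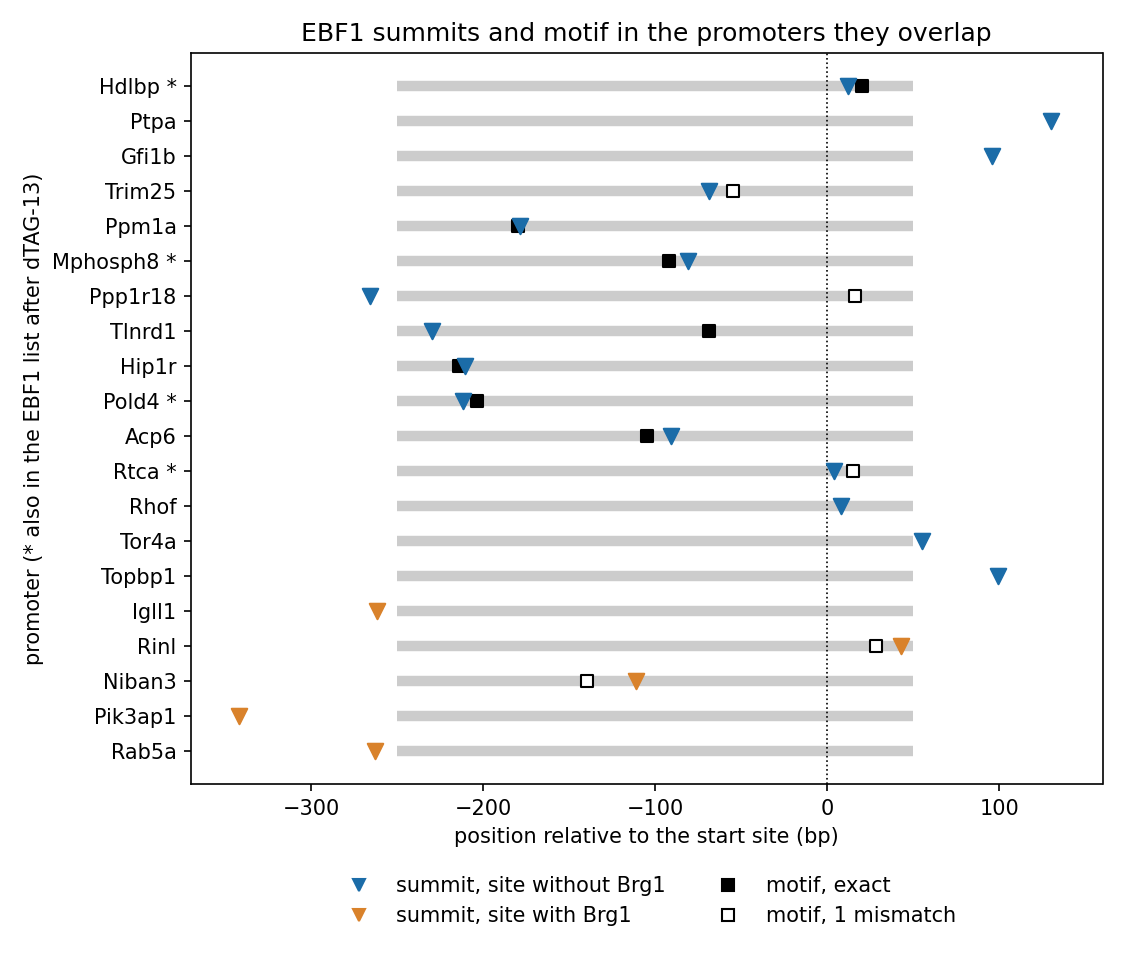
EBF1 summits (triangles, blue without Brg1 and orange with it) and motifs (squares, filled if exact and open with 1 mismatch) by distance in bp from the start site, in the protein-coding promoter windows (grey bars) that EBF1 sites overlap. In the 8 promoters printed in the text the motif's centre lies 1 to 14 bp from the summit, and an asterisk marks promoters whose site the EBF1 list after dTAG-13 also holds.

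EBF1 sites without Brg1 lay mostly inside genes or between them, and few were at promoters. By summit, 101 of the 229 (44.1%, 37.6% to 50.8%) were inside a protein-coding gene and more than 1 kb from its ends. Another 91 (39.7%, 33.4% to 46.4%) were between genes, and 37 (16.2%, 11.6% to 21.6%) were within 1 kb of either end of a gene. Exons and introns could not be told apart with the gene table used.

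Sites with Brg1 were placed more often between genes. Of the 83, 48 (57.8%, 46.5% to 68.6%) were between genes, 25 (30.1%, 20.5% to 41.2%) inside a gene and 10 (12.0%, 5.93% to 21.0%) within 1 kb of an end. Read the other way, 101 of the 126 EBF1 sites inside genes (80.2%, 72.1% to 86.7%) lacked Brg1, against 91 of the 139 between genes (65.5%). The intervals for the share inside genes overlap between both kinds of site, and those for the share between genes (upper end 46.4%, lower end 46.5%) only just do not. With the DMSO Brg1 list alone, the shares inside genes were closer, at 41.0% without Brg1 and 36.4% with it. Those between genes were then also closer, at 42.9% of 268 sites without Brg1 and 54.5% of 44 with it. Summits within 1 kb of a protein-coding start had alike shares, with 24 of 226 placed sites without Brg1 (10.6%) and 10 of 83 with Brg1 (12.0%). Within 10 kb the shares were 31.4% and 24.1%. The median distance to a start was 20.2 kb (15.9 to 27.4 kb) without Brg1 and 37.9 kb (23.3 to 50.1 kb) with it. Those intervals overlap. The 3 sites on chromosome 18 have no start site in the table and were left out of these values.

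**Figure D2:**
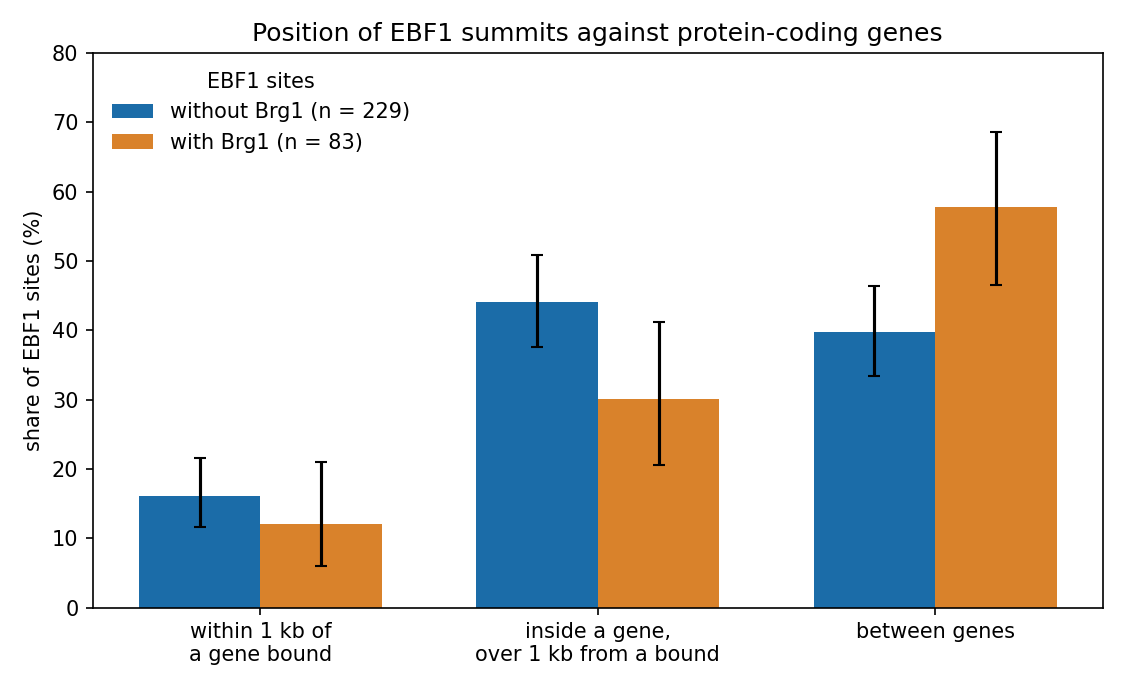
Share of EBF1 sites (percent, vertical axis) by place of the summit for the 229 sites without Brg1 (blue) and the 83 with it (orange), with exact 95% intervals as error bars; a gene bound is either end of a gene. Between genes the share is 39.7% without Brg1 and 57.8% with Brg1, and inside genes it is 44.1% and 30.1%.

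EBF1 enrichment had close medians at sites with and without a Brg1 peak. Fold enrichment, the authors' ratio of scaled summit fragments to local background, each with 1 added, had a median of 6.61 (6.30 to 6.90, range 3.19 to 26.2) at the 229 sites without Brg1. At the 83 sites with Brg1 it was 6.90 (6.15 to 7.27, range 3.35 to 22.1), and the intervals overlap. The median summit held 26 fragments in both kinds of site, and the median peak was 221 bp wide without Brg1 and 216 bp with it. The sites without Brg1 were not gathered at the weak end of the list. In 4 equal groups of 78 sites, ordered from the lowest to the highest fold enrichment, 70.5%, 80.8%, 70.5% and 71.8% lacked Brg1. Of the 20 EBF1 sites with the highest fold enrichment, 14 lacked it. One measure did differ in these lists: the local background was at its lowest value for 54 of 229 sites without Brg1 (23.6%, 18.2% to 29.6%) and 9 of 83 with it (10.8%, 5.08% to 19.6%). Those intervals overlap narrowly.

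**Figure D3:**
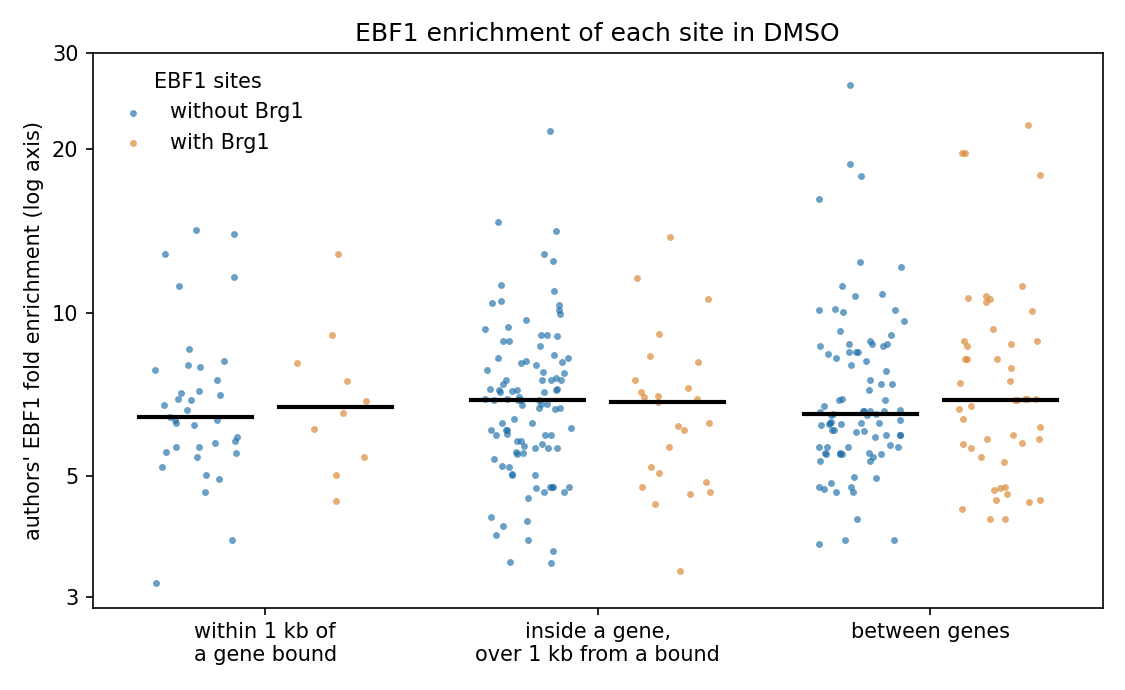
EBF1 fold enrichment in DMSO (log axis) for each EBF1 site without Brg1 (blue points) and with it (orange points), by place of the summit, with horizontal lines at the medians. The points overlap over most of their range, with medians of 6.61 over all sites without Brg1 and 6.90 over all sites with it.

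The highest EBF1 peak of the whole list had no Brg1. It lies on chr18:10918294-10918760, inside the long non-coding RNA gene Gm35814, and had a fold enrichment of 26.2 over 90 fragments. The nearest protein-coding gene was Mib1, an E3 ligase of the Notch pathway, 99.9 kb away and just under the 100 kb limit for assignment. The nearest Brg1 peak was 736 kb away. Next among the sites without Brg1 came one inside Slc25a26 (chr6:94518121-94518584), the mitochondrial carrier of S-adenosylmethionine, with 21.5 over 68 fragments with the nearest Brg1 peak 2.39 Mb away. A site 64.4 kb from Sh3gl3, an endophilin of membrane curvature, had 18.7 over 64 fragments. A site 16.4 kb from Actb, the cytoplasmic β-actin gene and also a subunit of BAF complexes, reached 17.8 over 56 fragments. The sites with Brg1 that exceeded it were 4, at Cux1 (22.1), Myl10 (19.7), Med13l (19.7) and Tbc1d16 (17.9).

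Within the immunoglobulin κ light-chain locus, a site on chr6:68884184-68884531 had a fold enrichment of 16.2 over 55 fragments. No protein-coding gene of the table lay within 100 kb of it, so it has no assigned gene. Other EBF1 sites in this locus did have Brg1. They were on chr6:70493986-70494266 (10.1, dTAG-13 Brg1 list), chr6:70041023-70041223 (7.41, both lists) and chr6:68481222-68481376 (5.74, DMSO list). Further down, the 20 highest sites without Brg1 included Sh2b3 (14.7), Adap1 (14.1), Irgc1 (13.9) and the potassium channel gene Kcnn1 (12.8). The zinc transporter gene Slc30a7 (12.8), Arap1 (12.4), the deubiquitinase gene Usp24 (12.4) and Tmem64 (12.1) were also among them. The last 6 of the 20 were Hdlbp (11.6), the collagen gene Col26a1 (11.2), Lrrc32 (11.2), which encodes the TGF-β-presenting protein GARP, Bahcc1 (11.2), Ttll11 (10.9) and Fgd2 (10.8), a Cdc42 exchange factor. At the low end were Topbp1, a DNA replication and checkpoint gene, at 3.19 over 21 fragments, and Sh3pxd2a and Pacsin1 at 3.47 each.

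By the gene whose body held the summit, or else the gene with the nearest end within 100 kb, 223 of the 229 sites (97.4%) were assigned to 215 protein-coding genes. That is 0.982% of all 21900 such genes, the background for the gene lists that follow. Of the 83 sites with Brg1, 76 (91.6%) were assigned, to 74 genes. The lists and the sites were chosen with earlier results of these data known, and counts in them are descriptions.

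Pax5 and Ebf1, both needed for commitment to the B lineage, each carried an EBF1 site without Brg1. At Pax5, which holds cells in the B lineage, the site (chr4:44706067-44706334) had a fold enrichment of 8.26 over 35 fragments and lay inside the gene, 4503 bp from its start. Brg1 peaks after dTAG-13 were close by, the nearest at 3943 bp, and Pax5 was assigned 1 Brg1 peak in DMSO and 3 after dTAG-13. At Ebf1 itself a site inside the gene (chr11:44911384-44911557) had 7.18 over 22 fragments. It lay 9973 bp from the nearest Brg1 peak after dTAG-13 and 1.55 Mb from the nearest in DMSO. Since the cells' EBF1 comes from an introduced copy, this is a site in the gene's own locus.

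Of 25 early B-lineage genes, 4 had a site without Brg1 (Ebf1, Pax5, Vpreb3 and Cd72) and 4 a site with it (Cd79b, Igll1, Vpreb2 and Foxo1). The early B-lineage genes of this list therefore fell on both sides. Vpreb3, which works in the assembly of the receptor, had a site 182 bp from the gene (chr10:75949736-75949990) with 6.61 over 21 fragments, and the nearest Brg1 peak was 358 kb away. Cd72, an inhibitory coreceptor of B cells, had a low site (4.75 over 15 fragments) 2165 bp from the gene and 2066 bp from a Brg1 peak after dTAG-13. In contrast the surrogate light chain genes Igll1 and Vpreb2 and the signalling chain gene Cd79b had Brg1 on their sites. At Igll1 it was in both Brg1 lists, at Vpreb2 in the DMSO list only and at Cd79b in the dTAG-13 list only. The nearest DMSO Brg1 peak was 76.9 kb from the Cd79b site. Cd79b is a borderline case, with 13 bp of overlap.

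Among 28 B-lineage transcription factors, Erg and Mef2d joined Ebf1 and Pax5 as genes with a site without Brg1, while Foxo1 and Id3 had one with it. The site in Erg, an ETS factor of blood stem and progenitor cells, had 7.83 over 24 fragments and lay 1434 bp from a Brg1 peak in DMSO and 2036 bp from one after dTAG-13. The site near Mef2d, a MADS-box factor, had 5.51 over 18 fragments and lay 29.0 kb from the nearest Brg1 peak.

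Of 30 genes of pre-B receptor signalling, 5 had a site without Brg1 and 5 a site with it. Genes of lipid signalling stood in both groups. Pik3cd, the PI3-kinase catalytic subunit p110δ, had a site inside the gene with 8.08 over 30 fragments, 30.9 kb from Brg1. Inpp5d, the lipid phosphatase SHIP1 that opposes PI3-kinase, had 4.69 over 26 fragments, 3970 bp from Brg1. Sh2b3, the adaptor LNK that restrains cytokine receptor signalling, had the highest site of the list (14.7 over 67 fragments), 2143 bp from a Brg1 peak after dTAG-13. Bank1, a B-cell scaffold protein, had 5.64 over 25 fragments and a Brg1 peak only 134 bp away. Inpp5d and Bank1 had a second EBF1 site with Brg1, and Cd79b, Plcg2 and Pik3ap1 had only sites with it.

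Regulators of small GTPases gave 6 of 54 genes with a site without Brg1 and 3 with one that had it (Iqsec1, Tbc1d16 and Rinl). All 6 act on Arf GTPases, which control membrane traffic and actin, but the list does not hold every such regulator. Fgd2, the Cdc42 exchange factor named above (10.8), also had a site without Brg1 and was not on it. Adap1 (14.1 over 48 fragments, 2485 bp from Brg1) and Arap1 (12.4 over 49 fragments, 16.8 kb from Brg1) encode Arf GTPase-activating proteins. The cytohesins, which are Arf exchange factors, were represented by Cyth1 with 2 sites (6.07 over 34 fragments and 4.78 over 21), Cyth3 (5.96 over 18) and Cyth4 (5.96 over 18). Iqsec1, another Arf exchange factor, had 5.03 over 28 fragments, 418 bp from a Brg1 peak in DMSO. That list had been drawn up with EBF1 sites of these data known, so neither its count nor its Arf genes are independent of them.

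Chromatin genes gave 4 of 51, among them Actb, Actl6b and Mphosph8, against 1 with Brg1 (Kmt2e). Mphosph8 had 6.93 over 33 fragments, and Actl6b, an actin-related BAF subunit known from neurons, had 5.65 over 17. Of 32 proliferation and survival genes, 0 had a site without Brg1 and 1 had a site with it (the survival gene Bcl2l1, with 42 bp of overlap). Among genes of other lineages, 0 of 21 T-cell, 0 of 20 myeloid and 0 of 20 neuronal genes had an EBF1 site of either kind. Of 16 erythroid genes, 1 did, namely Zfpm1, the GATA cofactor FOG1, with 4.05 over 27 fragments and without Brg1. Lists of these sizes would hold about 1 site or none at the background share, so these last counts are no result about the lists. Over all 284 listed genes, 21 had a site without Brg1, 14 had a site with it, and 3 of these had both.

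How far the sites lay from Brg1 depended on which Brg1 list was read. The nearest peak of either list was at a median of 36.8 kb, from 56 bp to 3.42 Mb. It was within 1 kb for 22 sites (9.61%), at 1 to 10 kb for 35 (15.3%), at 10 to 100 kb for 98 (42.8%) and beyond 100 kb for 74 (32.3%). Measured to the Brg1 list after dTAG-13 alone the median was 37.5 kb, and to the DMSO list alone it was 2.45 Mb, with 207 of the 229 sites (90.4%) beyond 100 kb. The lists held 5206 and 234 peaks, so a longer list leaves less room between peaks. The weakest Brg1 peaks rested on 8 fragments in DMSO and 10 after dTAG-13, and Brg1 below those levels would not be in the lists.

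**Figure D4:**
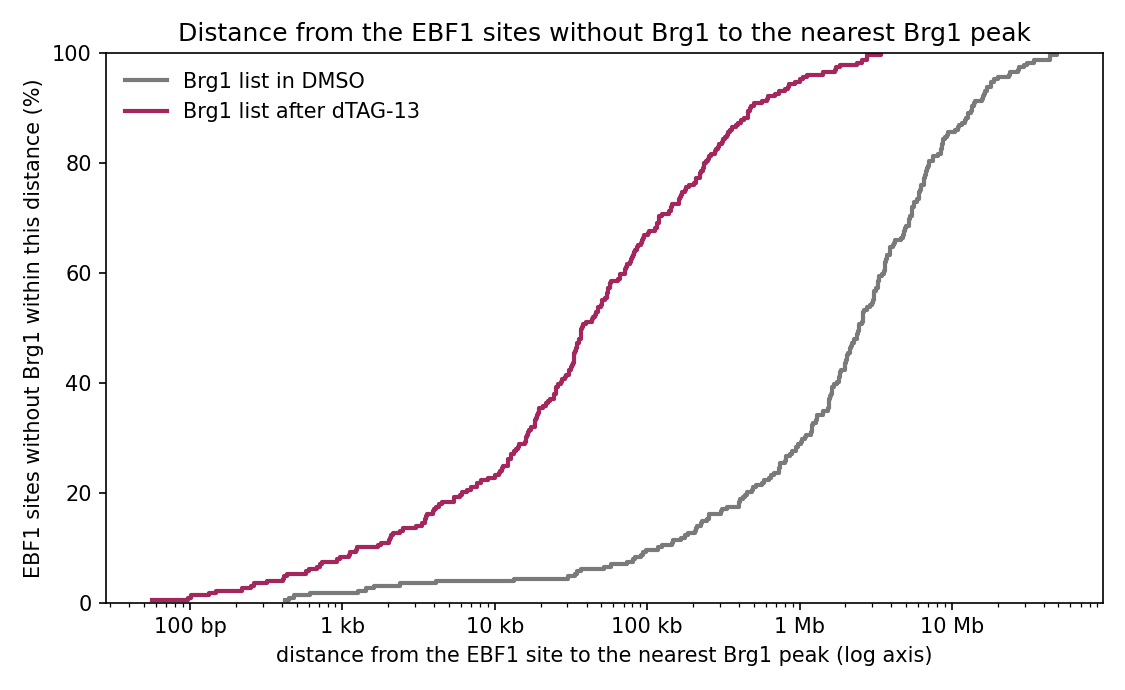
Distance from each EBF1 site without Brg1 to the nearest Brg1 peak (log axis), drawn as the cumulative share of the 229 sites (percent) for the Brg1 list in DMSO (grey) and after dTAG-13 (purple). The medians are 2.45 Mb and 37.5 kb.

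Some sites only just missed Brg1. Smndc1, a splicing factor gene, had its site 56 bp from a Brg1 peak, Bahcc1 97 bp, a site on chr9:116324386-116324561 with no assigned gene 101 bp, Bank1 134 bp and Zfp395 149 bp. Just on the other side of the rule, the overlaps were 13 bp at Cd79b, 33 bp at Tspoap1, 33 bp at Rab5a, 42 bp at Bcl2l1 and 48 bp at Endod1. Farthest from any Brg1 peak were the sites near Cyb5r4, a cytochrome b5 reductase gene (3.42 Mb), in Agpat4, an acyltransferase gene (2.79 Mb), and at Gm46390 (2.76 Mb).

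Although these sites lacked Brg1, their genes often had a Brg1 peak elsewhere. Of the 215 genes, 101 (47.0%) were assigned at least 1 Brg1 peak after dTAG-13, against 12.0% of all protein-coding genes (2635 of 21900). In DMSO it was 11 genes (5.12%), against 0.813%. Genes were not matched for length or for the space around them, from which peaks up to 100 kb away were assigned. A long gene, or one with wide space beside it, can take more peaks of any kind. The part of gene length and of this space was not tested. Inpp5d had 9 Brg1 peaks after dTAG-13, Ebf1 7, Cyth1 5, and Bank1 and Mef2d 4 each. Others had none in either list, among them Slc25a26, Sh3gl3, Vpreb3, Hdlbp and Kcnn1. Of the 21 listed genes with a site without Brg1, 15 had a Brg1 peak somewhere.

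At 11 genes an EBF1 site without Brg1 stood beside one with it, which compares both kinds of site at the same gene. Of these pairs, 5 had summits within 2 kb of each other: Iqsec1 (588 bp), Col26a1 (980 bp), Wdfy3 (1554 bp), Scd1 (1559 bp) and Bank1 (1748 bp). The rest were Cux1 (4333 bp), Enpp6 (4729 bp), Tex44 (9162 bp), Dusp2 (11.6 kb), Inpp5d (36.2 kb) and Myl10 (75.5 kb). The widest contrasts were at Cux1, a homeobox gene, with a fold enrichment of 22.1 at the site with Brg1 and 5.49 at the site without it, and at Myl10, with 19.7 and 5.96. Enpp6 went the other way, with 4.78 with Brg1 and 8.38 without. In all, fold enrichment was higher at the site with Brg1 in 8 of 11 genes, but fragments at the summit were higher there in 6 of 11, so the order depends on the measure.

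The densest group of EBF1 sites within 500 kb was on chromosome 5. It held 7 sites, of which 4 were without Brg1, among them 1 each at Cux1, Myl10 and Col26a1. Over the stretch from the first to the last summit there were 3 Brg1 peaks in DMSO and 9 after dTAG-13. Chromosome 5 held the most EBF1 sites and the most without Brg1 (33 of its 40, 67.2% to 92.7%). Chromosome 9 had 13 of 14 (66.1% to 99.8%). On chromosome 6 it was 6 of 13 (19.2% to 74.9%) and on chromosome 1 it was 10 of 20 (27.2% to 72.8%). Over all EBF1 sites the share was 73.4%, and of these intervals only that of chromosome 1 did not hold it. These chromosomes were named for their high or low values, so the counts are a description only. Only 8 genes had 2 sites without Brg1, among them Abcg1, Cyth1, Hand1, Ptprs, Tha1, Wdr66 and Zfp395.

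After dTAG-13, EBF1 was found again at 5 of the 229 sites without Brg1 (2.18%, 0.713% to 5.02%) and at none of the 83 with Brg1 (0%, up to 4.35%). Over the whole DMSO list the share was 1.60%, and these 5 were all the peaks the dTAG-13 list held. The intervals overlap, so 5 against 0 is not a difference beyond counting error. The sites were at Hdlbp, Kcnn1, the RNA cyclase gene Rtca, the DNA polymerase δ subunit gene Pold4, and Mphosph8, part of the gene-silencing HUSH complex. Their summits were within 20 bp of the DMSO summits. Hdlbp had 52 fragments at the summit in DMSO and 44 after dTAG-13, Kcnn1 46 and 34, Mphosph8 33 and 35, Rtca 31 and 42, and Pold4 19 and 25. Depth may differ between the libraries, so these counts give no direction.

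By fold enrichment in DMSO, 2 of the 5, Kcnn1 and Hdlbp, ranked 10 and 15 among the 229 sites, and the other 3 ranked 98 (Mphosph8), 161 (Pold4) and 174 (Rtca). These 5 were thus spread over the ranking, and the 9 sites above Kcnn1 were not in the list after dTAG-13. All 5 were within 1 kb of a gene end, against 37 of all 229 sites without Brg1 (16.2%). Of the 5, 4 were in the 8 promoters printed above, which had been chosen for a motif under the peak. The motif was exact at Hdlbp, Mphosph8 and Pold4 and had 1 mismatch at Rtca. With 5 sites, their place is a description only. The summit at Kcnn1 was at -2474 bp from the nearest protein-coding start in the table, outside the promoter windows. Keeping only EBF1 peaks with −log10 q of at least 10 left 3 of these 5 sites.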

How the data were processed

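EBF1 and Brg1 were measured by ChIP-seq, with 1 peak list for each of 4 immunoprecipitations. The 4 inputs were not analysed here. Per the submitters' processing notes the build was GRCm38/mm10 and the tools were MACS2 2.2.7.1, deepTools 3.3.2, Bowtie2 2.3.5.1 and SAMtools 1.10. For filters, calling settings and controls, details were not given in the sources used here. The lists carry 1 library's name each. In each deposited list the fold enrichment is a linear ratio of summit pileup plus 1 to local background plus 1. Significance of each peak (p and q) was deposited by the authors on the −log10 scale, the deposited score is 10 times −log10 q cut to a whole number, and another deposited column gives the summit's distance from the peak start. These are the authors' values and were used within a list only.

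Fragments at each summit were solved from the deposited fold enrichment and p, and were whole within 0.02 for 100% of peaks, with the EBF1 immunoprecipitation scaled by 0.863 in DMSO and 0.818 after dTAG-13. These EBF1 scales were those giving the most whole values, and each peak took the solution nearest a whole number. The share is therefore not an independent check, and for EBF1 after dTAG-13 it rests on 5 peaks. The median summit rested on 26 fragments for EBF1 and 13 for Brg1 in DMSO, and on 35 and 18 after dTAG-13. Total depth is unknown. The recovery and the overlap code were tested on simulated data.

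Overlap meant at least 1 bp. Summits were placed on 21900 protein-coding genes of RefSeq GRCm38.p6 (1 kb to either end, 100 kb for assignment). Intervals are exact Clopper-Pearson 95% intervals for shares and exact order-statistic intervals for medians, and they cover counting error only. The motif was searched on both strands of the RefSeq promoter windows, by symbol. The sites, the 10 gene lists (284 symbols) and the measures were chosen with earlier results of these data known. Sites named are the 20 highest, those at listed genes, promoters and gene ends, those also in the dTAG-13 list, those nearest to and farthest from Brg1, the lowest 3, the densest group, those sharing a gene, and the highest sites with Brg1. Just-missed and just-overlapping sites beyond the nearest 3 were added after their values were seen. Some genes that this rule names are not reported here. Python 3.11.15, pandas 2.3.3, NumPy 2.4.6, SciPy 1.17.1 and matplotlib 3.10.9 were used.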

Additional observations from a re-analysis of the deposited data

How the results depend on the processing

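Of 131 alternative values, 117 were labelled as unmoved and 14 as moved. Shares and medians were judged by their counting interval, and counts by a looser limit on their ratio to the main count. The number of sites without Brg1 was thus labelled unmoved under settings where its share moved. The share of EBF1 sites without Brg1 was 82.4% when overlap had to be 50% of both peaks, 66.3% when Brg1 within 1 kb counted, 85.9% with the DMSO Brg1 list alone, 82.1% with the dTAG-13 list alone, 82.1% with Brg1 −log10 q of at least 5, and 84.9% after cutting the Brg1 dTAG-13 list to the DMSO list's length, the last chosen after seeing the data. With the DMSO Brg1 list alone, the median fold enrichment of sites with Brg1 was 7.34 and the median distance of sites without Brg1 was 2451 kb. With EBF1 −log10 q of at least 10, the median fold enrichment was 8.68 without and 8.97 with Brg1, and 3 sites were found again. A limit of 2 kb put 23.1% of sites near a gene end, a limit of 20 kb left 82.5% with a gene, and 1 mismatch put the motif in 17.6% of protein-coding promoters. Sites without Brg1 were more often inside genes, and sites with Brg1 more often between genes, in the main setting and in 9 alternatives. These settings of the overlap, the lists or the sites reuse the same EBF1 sites. The gap inside genes shrank to 41.0% against 36.4% with the DMSO Brg1 list alone and to 41.1% against 36.2% with the cut list. Shares between genes were then 42.9% without Brg1 against 54.5% with it, and 43.0% against 53.2%. With the dTAG-13 list alone they were 40.2% against 64.3%. Median fold enrichment was higher with Brg1 in 8 of 10 settings, the main one included, the exceptions being Brg1 within 1 kb and the dTAG-13 list alone. No paired analysis was possible because each group has 1 library and no value comes from a test. Library depth, inputs and sequence outside promoter windows were not analysed here.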
